A study of Mus musculus with 6 samples.

Results

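Genes of septal cartilage were examined by RNA sequencing of posterior nasal septum from mice fed a zinc-deficient or a control diet. The 10 genes were taken by name: Acan, Hapln1, Matn1, Matn3, Comp, Chad, Cnmd, Ucma, Sox9 and Sox5. No measured value entered the rule, but earlier results of these data were known when the genes were chosen. All 10 were found among the 41709 genes of the deposited count table, and all 10 were among the 18427 genes that passed the filter on low counts.

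There were 3 libraries from zinc-deficient mice and 3 from control mice, numbered 4, 5 and 6 in each diet, and the mice were on their diet between 4 and 8 weeks of age, per the labels. The labels give no strain, sex or genotype, and while the tissue label is nasal mucosa, the dissected pieces also held bone; cartilage is not named in the labels. Whether the libraries of a diet stem from different mice is not stated; the p-values below therefore rest on a spread that could be partly technical. Counts assigned to genes came to 14397826, 16163294 and 18727863 for zinc-deficient and 13059798, 11731999 and 16748740 for control libraries. In this bulk tissue, fewer cartilage cells and less RNA per cartilage cell cannot be told apart.

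The nasal septum is built on a plate of hyaline cartilage, a tissue of chondrocytes set in a matrix that holds water. Its bulk is made of type II collagen fibrils and of aggrecan, a proteoglycan whose sulphated chains attract water and which is tied to hyaluronan by link protein. Smaller proteins such as matrilins, COMP and chondroadherin connect fibrils, proteoglycans and cells. The transcription factor SOX9, with SOX5 and SOX6 as partners, switches on most of these matrix genes.

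No cartilage gene passed the test of the diets. Across the whole table, 22 of 18427 genes passed (0.119%) at an adjusted p of 0.05 with edgeR's quasi-likelihood test and Benjamini-Hochberg adjustment, of which 16 were higher (0.0868%) and 6 lower (0.0326%) in zinc-deficient libraries; of the 10 cartilage genes 0 passed in either direction. At an unadjusted p under 0.05 there was 1 cartilage gene, Sox5, which was lower, against 12.9% of all genes tested (6.4% higher and 6.46% lower), and DESeq2 passed 0 of the 10 against 1.94% of all genes. The median log2 fold change of the 10, zinc-deficient over control, was −0.04, against −0.0021 over all genes tested, and 5 were positive and 5 negative. The 95% interval of the fold change held 0 for 9 of them, and for 7 it lay within −1 and 1 on the log2 scale, as it did for 67.9% of all genes tested. The control libraries spanned a wide range: control replicate 6 held the highest level of 8 of the 10 genes and control replicate 4 the lowest level of 7. All fold changes below are zinc-deficient over control, and CPM is the count relative to a library size scaled by TMM, edgeR's trimmed-mean scaling.

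**Figure D1:**
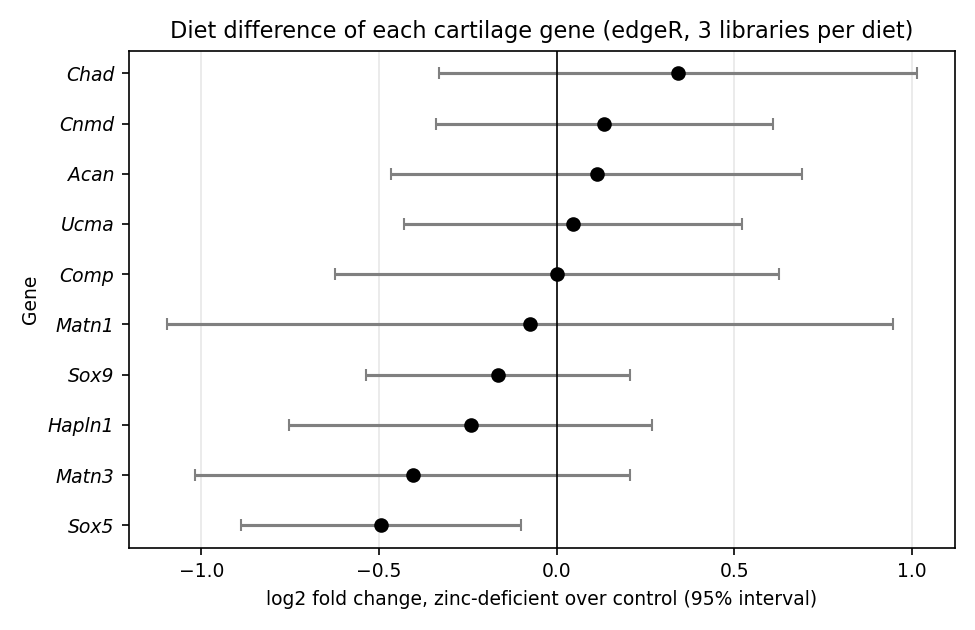
The log2 fold change of each of the 10 cartilage genes, zinc-deficient over control, is plotted as a point with its 95% interval as a bar, from edgeR's quasi-likelihood test on 3 libraries per diet. The interval of Sox5 lies below 0, at −0.89 to −0.10, and each of the other 9 holds 0; none of the 10 passed after adjustment over all genes.

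Cartilage RNA was nevertheless present: markers beyond the 10 genes were found in every library. Col2a1, which encodes type II collagen, had 58.7, 29.7 and 31.5 RPKM (the authors' deposited level per kilobase of gene) in zinc-deficient libraries, against 26.4, 27.1 and 54.4 RPKM in control libraries. Cytl1, a secreted factor of chondrocytes, was the most abundant gene of a list of 21 other chondrocyte genes, at 160, 145 and 171 RPKM in zinc-deficient libraries, against 102, 134 and 243 RPKM in control libraries. Col10a1, the collagen of hypertrophic cartilage, had 59.0, 45.0 and 46.0 RPKM in zinc-deficient libraries, against 38.7, 54.0 and 91.8 RPKM in control libraries. In all 3, control replicate 4 was the lowest library. Markers of bone, marrow, fibroblasts, glands and olfactory neurons were present too. Of 14 osteoblast markers, 0 passed the test, 14 had a negative fold change and 8 of them had an unadjusted p under 0.05, with Col1a1 and Col1a2, of type I collagen, at −0.86 and −0.80. With DESeq2 4 of them passed as lower, Bglap, Bglap2, Dmp1 and Phex, named after their values were seen. Of 13 marrow markers all had a positive fold change and 1 passed, Igll1 of immature B cells, which rose (2.93 to 3.54 CPM in zinc-deficient libraries, against 0 to 0.311 CPM in control libraries, edgeR adjusted p = 0.037). The call of Igll1 was lost when any library other than control replicate 4 was left out. Some of the 10 genes are not confined to cartilage: SOX9 is also made by olfactory glands and SOX5 by neurons, so their RNA may come from more than one tissue of the piece.

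Per kilobase, Chad and Acan were the most abundant of the 10. Over the 6 libraries Chad averaged 41.1 ± 14.5 RPKM (SD, n = 6) and Acan 38.4 ± 10.3 RPKM, followed by Matn1 at 25.5 ± 8.78, Ucma at 20.7 ± 4.81, Comp at 19.0 ± 5.27, Sox9 at 10.3 ± 1.76, Cnmd at 9.27 ± 2.36, Hapln1 at 2.39 ± 0.600, Matn3 at 1.77 ± 0.518 and Sox5 at 0.654 ± 0.127 RPKM. Only 2 neighbouring pairs in this order had ranges that did not overlap, namely Cnmd above Hapln1 and Matn3 above Sox5. Within a library, Acan was also above Matn1, and Comp above Sox9, in 6 of 6 libraries. Chad was above Acan in 3 of 6, so those levels could not be ordered. Sox5 was the lowest of the 10 in every library.

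**Figure D2:**
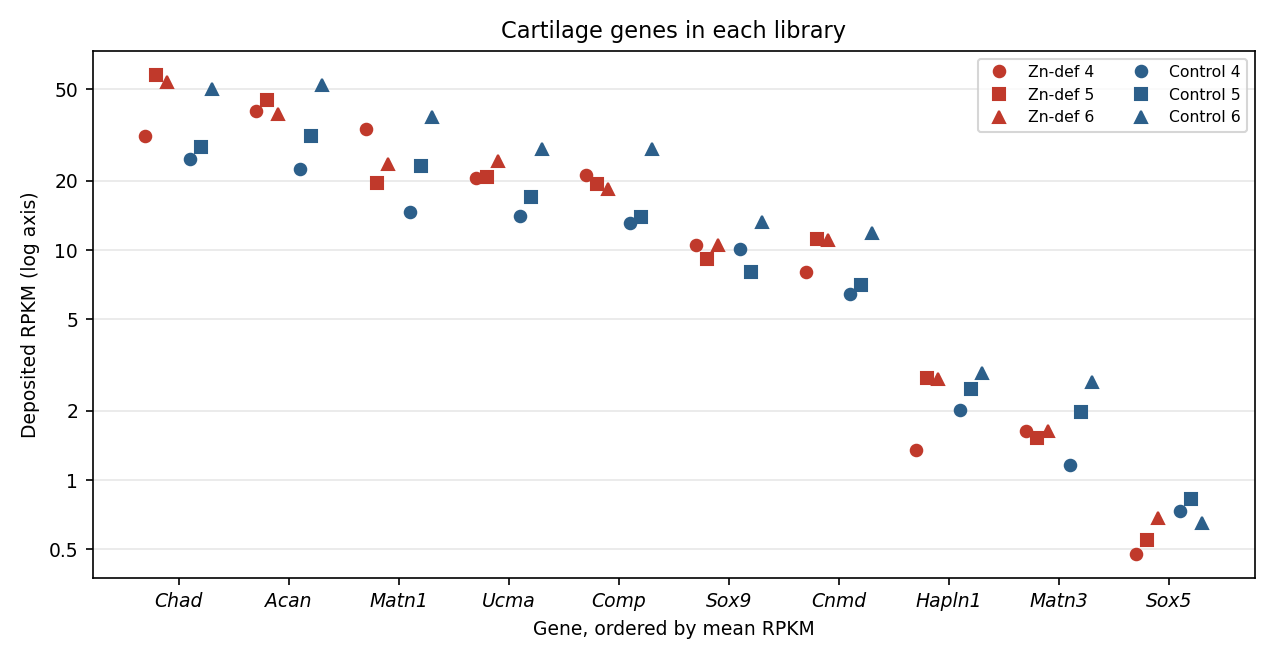
Deposited RPKM of each of the 10 cartilage genes is plotted on a log axis for each library, with zinc-deficient libraries in red left of control libraries in blue, and the symbol giving the replicate number. Control replicate 6 (blue triangle) lies highest for most genes and control replicate 4 (blue circle) lowest; the zinc-deficient points lie mostly between them, and Hapln1, Matn3 and Sox5 lie far below the others.

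Acan and Hapln1 encode aggrecan and the link protein that locks aggrecan to hyaluronan. Acan (ENSMUSG00000030607, chromosome 7, 78703231 to 78764847, plus strand, as the deposited table gives it) had 634, 634 and 539 CPM in zinc-deficient libraries, against 344, 515 and 811 CPM in control libraries. The zinc-deficient values lay inside the control range, with a log2 fold change of 0.11 (95% interval −0.47 to 0.69, edgeR adjusted p = 0.894). Hapln1 (chromosome 13, 89687915 to 89759771) had 16.8, 31.0 and 30.1 CPM in zinc-deficient libraries, against 24.3, 32.0 and 36.0 CPM in control libraries. The diets overlapped, and zinc-deficient replicate 4 stood apart as the lowest library for this gene. Its log2 fold change was −0.24 (95% interval −0.75 to 0.27, edgeR adjusted p = 0.702). Link protein RNA was scarce beside aggrecan RNA, and the ratio of Acan to Hapln1 RPKM was 29.8, 16.1 and 14.1 in zinc-deficient libraries, against 11.2, 12.7 and 17.8 in control libraries.

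The RefSeq window of the Acan promoter, from 250 bases before to 50 bases after the start, is shown because it is the richest in G and C of the 8 windows at hand, at 74.0% against a median of 52.7% over 32851 windows of the same length. It lies at chr7:79052976-79053275 on the plus strand of GRCm38.p6. Its RefSeq start is at −257 bases from the outer end of Acan as GENCODE M21 annotates the gene on the same build, and so outside it. Of 2 annotated transcripts, 0 begin within 50 bases of that start. The window holds none of the words searched on both strands. These were AACAAT with ACAATG and the related ACAAAG, which resemble the core that SOX factors bind, and the word TATAAA of the TATA box.
Acan window: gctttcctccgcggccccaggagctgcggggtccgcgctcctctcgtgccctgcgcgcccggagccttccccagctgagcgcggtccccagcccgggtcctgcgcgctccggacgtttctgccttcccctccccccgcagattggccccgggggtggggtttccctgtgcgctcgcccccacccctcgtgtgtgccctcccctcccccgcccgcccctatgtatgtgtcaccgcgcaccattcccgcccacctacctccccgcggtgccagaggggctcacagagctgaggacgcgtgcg

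Matn1 and Matn3 encode matrilins, and Comp encodes cartilage oligomeric matrix protein, a thrombospondin; all are adaptors that bridge collagen fibrils and proteoglycans. Matn1 (chromosome 4, 130671696 to 130682786) had 142, 74.1 and 87.8 CPM in zinc-deficient libraries, against 59.8, 102 and 158 CPM in control libraries. Its level varied 1.92-fold between zinc-deficient libraries and 2.65-fold between control libraries, the widest control range of the 10. With a log2 fold change of −0.08, its 95% interval reached from −1.10 to 0.95, which takes in a 2-fold lower level (edgeR adjusted p = 0.959). Matn3 (chromosome 12, 8997929 to 9022028) had 10.3, 8.67 and 9.11 CPM in zinc-deficient libraries, against 7.16, 13.1 and 16.8 CPM in control libraries. The zinc-deficient values lay close together inside the control range, with a log2 fold change of −0.41 (95% interval −1.02 to 0.21, edgeR adjusted p = 0.574). Comp (chromosome 8, 70826208 to 70834716) had 132, 108 and 101 CPM in zinc-deficient libraries, against 79.6, 91.0 and 171 CPM in control libraries. Its diet means were close, 114 ± 16.1 CPM in zinc-deficient libraries and 114 ± 49.6 CPM in control libraries (SD, n = 3 each), with a log2 fold change of 0.00097 (95% interval −0.62 to 0.63, edgeR adjusted p = 0.999).

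Chad encodes chondroadherin, a leucine-rich protein that binds chondrocytes through integrin; Cnmd encodes chondromodulin, which keeps vessels out of cartilage; and Ucma encodes a secreted protein rich in gamma-carboxyglutamate. Chad (chromosome 11, 94455873 to 94459953) had 111, 184 and 167 CPM in zinc-deficient libraries, against 85.0, 104 and 176 CPM in control libraries. The diets overlapped through control replicate 6, and the log2 fold change of 0.34 was the highest of the 10 (95% interval −0.33 to 1.01, edgeR adjusted p = 0.668). Acsf2, on the other strand, overlaps Chad, and with no stated strand its reads and those of Chad cannot be told apart; the table gives 4314 counts to Acsf2 and 12963 to Chad over the 6 libraries. Cnmd (chromosome 14, 79875130 to 79899610) had 31.1, 39.1 and 37.6 CPM in zinc-deficient libraries, against 24.2, 28.6 and 45.3 CPM in control libraries. Its log2 fold change was 0.13 (95% interval −0.34 to 0.61, edgeR adjusted p = 0.834), and its zinc-deficient values again lay inside the control range. Ucma (chromosome 2, 4980933 to 4990559) had 38.3, 34.6 and 39.8 CPM in zinc-deficient libraries, against 25.5, 32.9 and 50.5 CPM in control libraries. With a 1.15-fold range it was the most even of the 10 between zinc-deficient libraries, and its log2 fold change was 0.05 (95% interval −0.43 to 0.52, edgeR adjusted p = 0.951).

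The Chad window is shown because Chad had the highest fold change of the 10 and its window alone of the 8 holds TATAAA, in capitals, which starts at position −28 counted from the start and stands in 13.6% of all windows. It lies at chr11:94564797-94565096 on the plus strand of GRCm38.p6.
Chad window: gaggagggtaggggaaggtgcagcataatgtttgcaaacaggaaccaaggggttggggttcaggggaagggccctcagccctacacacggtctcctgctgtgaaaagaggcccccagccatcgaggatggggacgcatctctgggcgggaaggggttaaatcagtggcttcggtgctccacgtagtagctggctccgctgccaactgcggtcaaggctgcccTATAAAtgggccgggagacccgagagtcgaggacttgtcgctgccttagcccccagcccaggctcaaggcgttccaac

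Sox9 and Sox5 encode transcription factors of the chondrocyte lineage. Sox9 (chromosome 11, 112673050 to 112678586) had 91.9, 71.3 and 80.5 CPM in zinc-deficient libraries, against 85.7, 72.8 and 114 CPM in control libraries. Its level varied 1.29-fold between zinc-deficient libraries and 1.57-fold between control libraries, and its log2 fold change was −0.16 (95% interval −0.54 to 0.21, edgeR adjusted p = 0.724). Sox5 (ENSMUSG00000041540, chromosome 6, 143774151 to 144727703, minus strand) had 14.4, 14.9 and 18.2 CPM in zinc-deficient libraries, against 21.6, 26.0 and 19.4 CPM in control libraries. It was the only 1 of the 10 whose CPM ranges did not overlap, as was the case for 18.9% of all genes tested (9.56% higher and 9.31% lower), and all 3 zinc-deficient values were the lower ones. On the deposited RPKM scale the Sox5 ranges did overlap, at 0.477, 0.546 and 0.686 RPKM in zinc-deficient libraries, against 0.737, 0.825 and 0.649 RPKM in control libraries, so the separation was not seen on both scales. Sox5 had a log2 fold change of −0.49, SE 0.18 (95% interval −0.89 to −0.10), which did not pass over all genes (edgeR adjusted p = 0.300). In the authors' deposited table Sox5 had p = 0.0292 and a false discovery rate of 0.332, and the other 9 genes had rates between 0.575 and 0.997. Genes that overlap Sox5 on either strand number 7 in the deposited annotation, and the highest total among them was 7 counts, against 1703 for Sox5.

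The Sox5 window is shown because Sox5 alone had separate CPM ranges and its window alone of the 8 holds a SOX-like word, ACAATG in capitals, which starts at position −154 and stands in 12.6% of all windows. Windows were matched by symbol, and that of Sox5 is not at the outer end of the gene: it surrounds a start that lies 835 kilobases inside Sox5 as GENCODE M21 annotates it on the same build, where 4 of 14 transcripts begin within 50 bases. The counts are per gene and do not show which start was used. The window lies at chr6:143947057-143947356 on the minus strand of GRCm38.p6 and is poor in G and C, at 39.7%. Any of the 3 SOX-like words stands in 33.2% of all windows and in 1 of the 8.
Sox5 window at an internal start: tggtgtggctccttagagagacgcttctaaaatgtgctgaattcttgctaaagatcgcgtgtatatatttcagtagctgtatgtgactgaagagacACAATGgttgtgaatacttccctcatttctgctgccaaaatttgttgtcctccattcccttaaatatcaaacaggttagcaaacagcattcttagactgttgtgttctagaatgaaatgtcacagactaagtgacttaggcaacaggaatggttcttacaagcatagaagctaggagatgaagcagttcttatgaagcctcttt

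The 10 cartilage genes, as a set, differed more between the 3 control libraries than between the 3 zinc-deficient libraries. The SD of log2 CPM had a median of 0.183 over the 10 genes in zinc-deficient libraries and 0.518 in control libraries, against 0.233 in both diets over all genes tested. It was larger in control libraries for 9 of the 10, all but Hapln1, and for 50.4% of all genes tested. The 10 genes were measured in the same 3 libraries per diet and several rose and fell together. The count and the medians therefore describe these libraries and are not 10 separate observations of the diets. Cartilage collagens did not share the larger control spread as a set. The ratio of control to zinc-deficient SD was 0.905 for Col2a1, 0.861 for Col9a3, 0.529 for Col11a1 and 0.388 for Col11a2. It was 1.02 for Col9a1, 1.06 for Col27a1 and 1.17 for Col9a2. A larger control spread was not particular to the 10 genes, and other cartilage genes were mixed. The zinc-deficient and control SD were 0.154 and 0.647 for Cytl1, 0.315 and 0.637 for Col10a1 and 0.137 and 0.320 for Mmp13. They were even for Mgp, at 0.514 and 0.513, and reversed for Matn4, at 0.550 and 0.195, and Fgfr3, at 0.265 and 0.136. Control replicates 6 and 4 held the highest and lowest levels of most of the 10 genes, so a comparison of this pair was partly fixed in advance. The level in control replicate 6 was at least 1.5 times that in control replicate 4 for 7 of the 10, which was so for 9.11% of all genes tested. The reverse held for 0 of the 10 and for 9.93% of all genes tested. The ratio was 2.65 for Matn1, 2.36 for Acan, 2.35 for Matn3, 2.14 for Comp, 2.07 for Chad, 1.98 for Ucma and 1.87 for Cnmd. It was 1.48 for Hapln1, 1.33 for Sox9 and 0.899 for Sox5, which alone did not follow the others. The summed CPM of the 10 genes was 1222, 1199.9 and 1109.9 in zinc-deficient libraries, against 757, 1017 and 1598 in control libraries, so that the zinc-deficient sums all lay inside the control range.

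**Figure D3:**
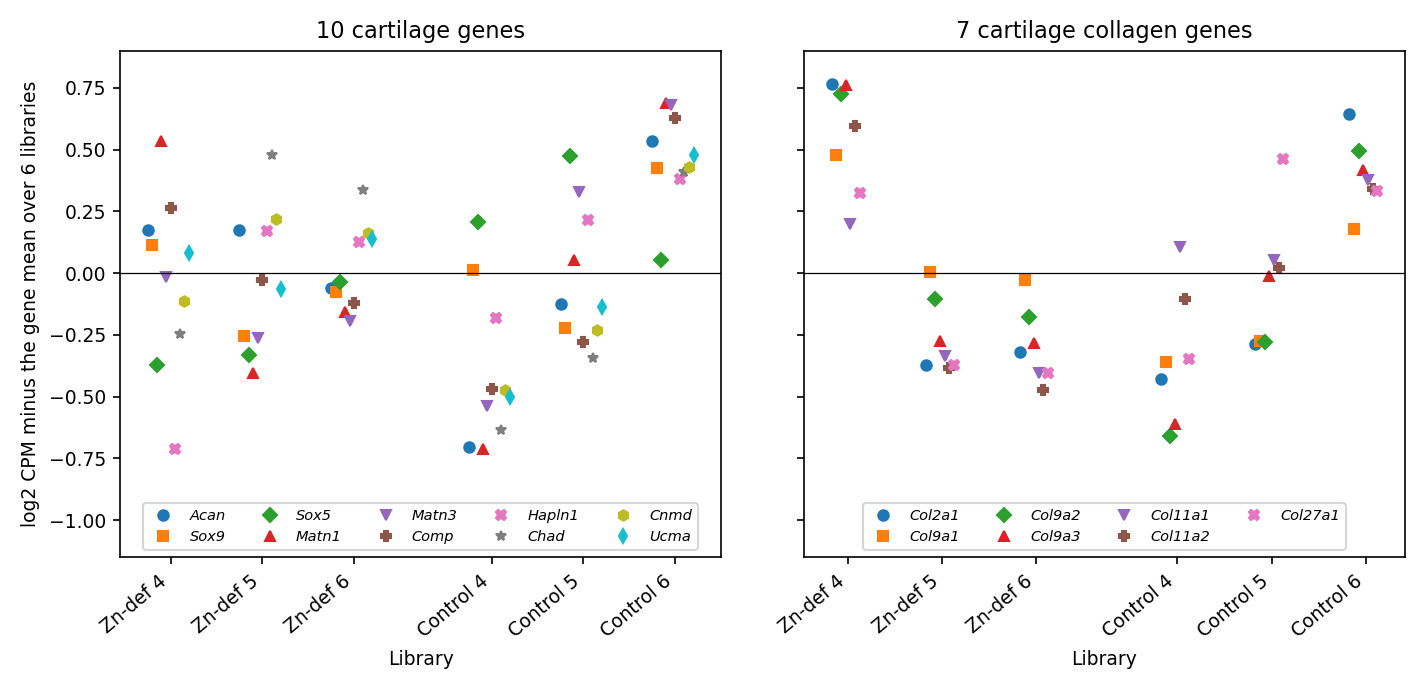
For each library, points give the log2 CPM of a gene minus its mean over the 6 libraries, for the 10 cartilage genes on the left and 7 cartilage collagen genes on the right, with zinc-deficient libraries left of control libraries. Most of the 10 genes are lowest in control replicate 4 and all but Sox5 are clearly above 0 in control replicate 6, whereas the collagens are also high in zinc-deficient replicate 4.

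Values without the outermost control libraries are given here. Control replicates 6 and 4 were picked because they held the highest and lowest levels of most of the 10 genes. The direction in which the median moved was therefore largely fixed in advance. Without control replicate 6, the median log2 fold change of the 10 was 0.35, with Chad at 0.71, Acan at 0.49, Cnmd at 0.45 and Comp at 0.42, none of which passed over all genes (edgeR adjusted p = 0.333, 0.392, 0.396 and 0.367). Without control replicate 4 the median was −0.20 and Matn3 was at −0.67 (edgeR adjusted p = 0.430). Sox5 stayed negative in each of these, at −0.58 without control replicate 6 and −0.51 without control replicate 4. No member passed when any of the 6 libraries was left out.

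Markers of other tissues also differed between these libraries. The summed CPM of 14 osteoblast markers was 13698, 7294 and 6516 in zinc-deficient libraries, against 20225, 11924 and 17029 in control libraries. That of 13 marrow markers was 2024, 1118 and 984 in zinc-deficient libraries, against 1004, 310.1 and 242 in control libraries. Control replicate 4, lowest in cartilage genes, was the highest control library in both lists, and control replicate 6, highest in cartilage genes, was the lowest library of all in marrow markers. The summed CPM of 10 fibroblast markers was 936, 1042 and 982 in zinc-deficient libraries, against 2663, 1305 and 2838 in control libraries. Of these 10, 0 passed with edgeR, 9 had a negative fold change, the median was −0.59, and at an unadjusted p under 0.05 there were 5 lower and 1 higher. The most abundant were Col3a1, of type III collagen, at −1.54 and Col6a3, of type VI collagen, at −0.62, and DESeq2 passed 3 of the 10 as lower. The summed CPM of 9 olfactory neuron markers was 9638, 8142 and 8232 in zinc-deficient libraries, against 6046, 7221 and 6383 in control libraries. All 9 had a positive fold change with a median of 0.34, 0 passed with edgeR and 4 had an unadjusted p under 0.05; the most abundant were Omp, a marker of mature neurons, at 0.53 and Stoml3 at 0.21. Of 10 gland and supporting cell markers 0 passed, with a median of 0.12. The part of these tissues in the levels of cartilage genes was not tested.

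**Figure D4:**
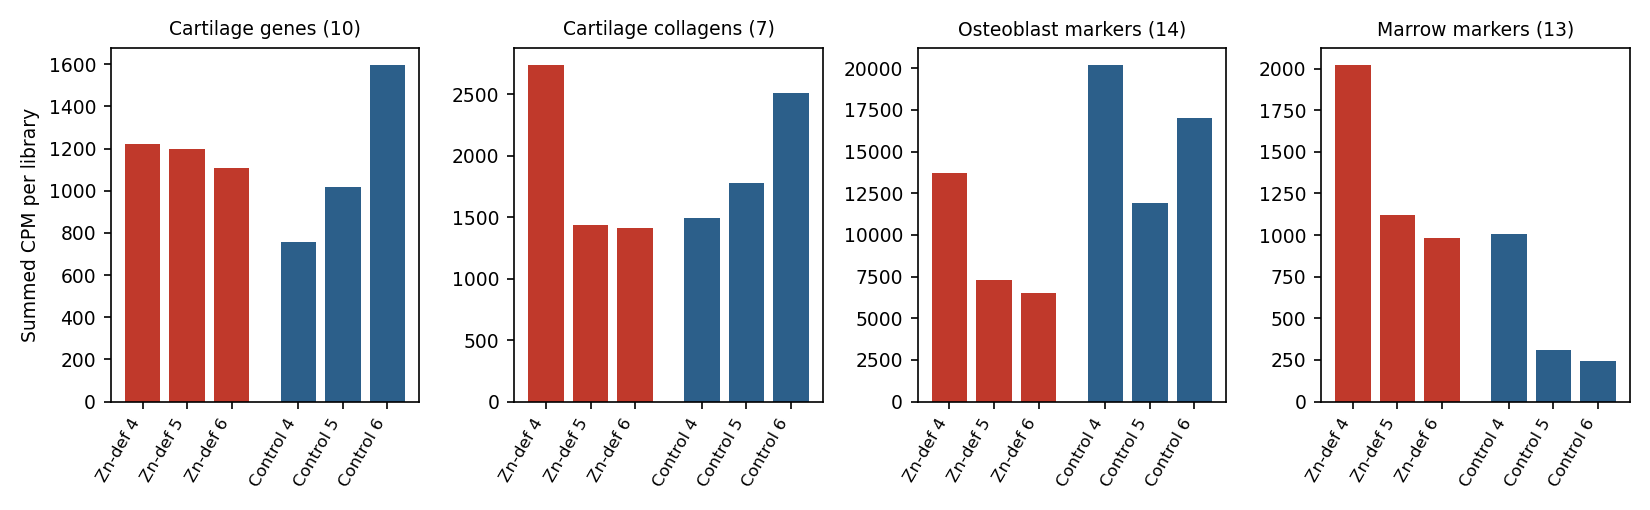
Bars give the summed CPM per library of the 10 cartilage genes, 7 cartilage collagens, 14 osteoblast markers and 13 marrow markers, each panel with its own axis from 0, with zinc-deficient libraries in red left of control libraries in blue. The cartilage sum spans 1109.9 to 1222 CPM in zinc-deficient libraries and 757 to 1598 CPM in control libraries, and marrow markers are highest in zinc-deficient replicate 4, at 2024 CPM.

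The 10 genes differed in how closely they followed each other. Across the 6 libraries, which share the dissection and the depth of each library, the correlation of log2 CPM is given as a description with no test. Acan, Comp and Ucma were close to each other, with Pearson r of 0.92 for Acan and Comp, 0.92 for Acan and Ucma and 0.91 for Comp and Ucma. Chad and Cnmd formed the closest pair (r = 0.96), and r was 0.84 for the matrilins Matn1 and Matn3. Among 12400 genes ranked by likeness to a member, Cnmd had rank 9 for Chad and Chad rank 7 for Cnmd. Comp had rank 26 for Acan, and Acan rank 63 for Comp. Matn3 had only rank 249 for Matn1, and Matn1 rank 103 for Matn3, so many genes outside the 10 were more like each matrilin. Cnmd was also close to Ucma (r = 0.88) and Acan (r = 0.87), and Matn1 to Comp (r = 0.87), so these genes do not divide into separate sets. Matn1 and Chad were far less alike (r = 0.27). Hapln1 had r between −0.06 and 0.54 with the others, and Sox5 between −0.47 and 0.46, with 7 of its 9 values negative.

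Matn1 and Chad departed from each other in opposite directions in zinc-deficient replicate 4 and in the other zinc-deficient libraries. The ratio of Matn1 to Chad RPKM was 1.07, 0.338 and 0.442 in zinc-deficient libraries, against 0.591, 0.821 and 0.757 in control libraries, a 3.17-fold range. The ratio of Col2a1 to Chad was 1.87, 0.512 and 0.586 in zinc-deficient libraries, against 1.07, 0.961 and 1.08 in control libraries. The ratio of Cnmd to Chad, by contrast, stayed within a 1.34-fold range, at 0.255, 0.194 and 0.206 in zinc-deficient libraries, against 0.259, 0.251 and 0.235 in control libraries. Zinc-deficient replicate 4 was high in Matn1 and type II collagen RNA and low in Chad and Hapln1 RNA compared with the other zinc-deficient libraries. In that library the level was 1.75 times the mean of the other zinc-deficient libraries for Matn1 and 2.16 times for Col2a1, against 0.635 times for Chad and 0.549 times for Hapln1. It was also the highest library of all in marrow markers, whose part in these ratios was not tested.

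**Figure D5:**
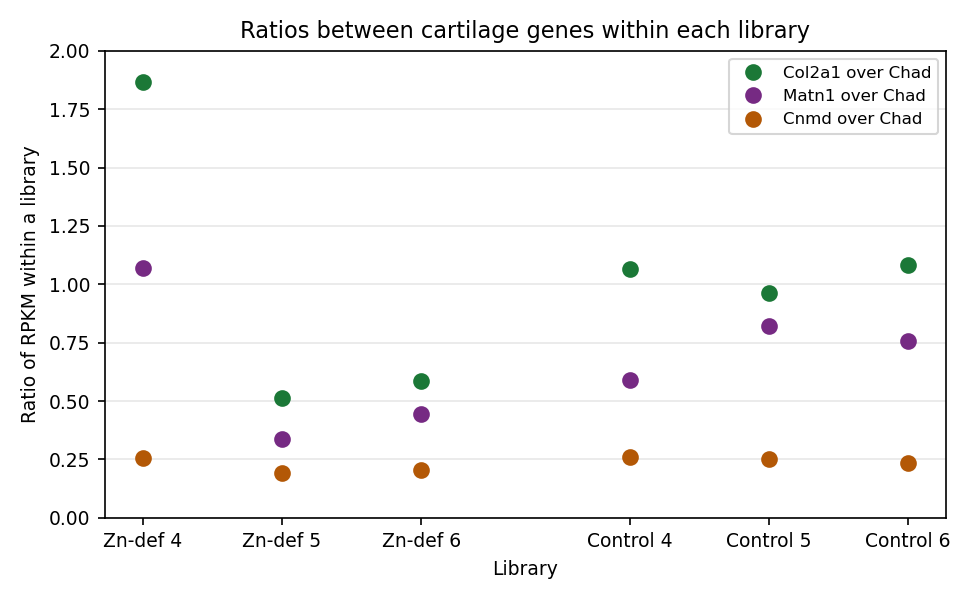
Points give the ratio of RPKM between pairs of genes within each library, for Col2a1 over Chad, Matn1 over Chad and Cnmd over Chad, with zinc-deficient libraries left of control libraries. Col2a1 over Chad and Matn1 over Chad are highest in zinc-deficient replicate 4 (1.87 and 1.07) and lowest in zinc-deficient replicate 5 (0.512 and 0.338), whereas Cnmd over Chad stays between 0.194 and 0.259.

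Other cartilage genes did not pass the test of the diets either. Of 7 collagens of cartilage fibrils, all tested, 0 passed, with a median log2 fold change of 0.07 and Col2a1 at 0.07 (95% interval −0.88 to 1.01) and Col11a2, of type XI collagen, at −0.10. Of 20 tested genes among 21 other chondrocyte genes 0 passed, with a median of −0.05, Cytl1 at −0.12 and Mgp, an inhibitor of calcification, at 0.46. Of 10 growth plate genes 0 passed, with a median of −0.37 and Col10a1 at −0.40. At an unadjusted p under 0.05 there were 2 of these 37 genes, and they were chosen for naming after their values were seen: Fgfr3, a growth factor receptor that restrains cartilage growth, at 0.34, and Mmp13, a collagenase of hypertrophic cartilage and bone, at −1.06. Nkx3-2, a cartilage transcription factor, had too few counts to be tested. Of 10 genes of tendon, perichondrium and joint surface 0 passed, with a median of −0.19, Thbs4, a relative of Comp, at −0.97 (95% interval −2.60 to 0.66) and Cpxm2 at 0.09.

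The genes that build and cut the aggrecan network did not pass either. Of 22 genes for chondroitin sulphate synthesis 0 passed, with a median of 0.04, and the most abundant were Papss2, which makes the sulphate donor, at 0.09 (95% interval −0.22 to 0.39) and B3gat3, which completes the linker to the core protein, at 0.26. At an unadjusted p under 0.05 there were 3 of them: Chst3, a sulphotransferase, at 0.97, Slc35d1, a carrier of nucleotide sugars, at 0.28 and Slc26a2, a sulphate carrier, at −0.51. Of 11 genes of hyaluronan synthesis, binding and breakdown 0 passed, with a median of −0.11, the receptor Cd44 at −0.11 and Cemip2 at −0.05, and 4 had an unadjusted p under 0.05, all of them lower: Has2, a hyaluronan synthase, Hyal1 and Cemip, which break hyaluronan down, and Tnfaip6, which binds it. Of 11 tested genes for proteases that cut aggrecan or cartilage matrix and the inhibitor Timp3, a group rich in zinc enzymes, 0 passed and all 11 had negative fold changes, with a median of −0.24 and Timp3 at −0.20. At an unadjusted p under 0.05 there were 3, Mmp13, Mmp14 at −0.44 and Adamts12 at −0.78. The genes named here for their unadjusted p were chosen after their values were seen. Mmp13 had 25.0, 29.8 and 25.6 CPM in zinc-deficient libraries, against 70.5, 45.9 and 51.6 CPM in control libraries. These ranges did not overlap, and the log2 fold change of −1.06, SE 0.18, just missed the threshold (edgeR adjusted p = 0.0515). In the authors' deposited table, with no test named, Mmp13 had a false discovery rate of 2.6e-05. It passed without a low-count filter, with a filter of 100 counts, with DESeq2 and with the replicate number as a block. MMP13 is also made by osteoblasts, whose markers were lower in zinc-deficient libraries, and their part in its level was not tested.

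Relatives of the 10 genes gave no call. Of 13 tested paralogues 0 passed, with a median log2 fold change of 0.12 and no gene whose CPM ranges were separate. The most abundant were Sox10, a factor of glia and glands, at 0.09 (95% interval −0.41 to 0.59), and Bcan, a brain proteoglycan of the aggrecan family, at 0.36. Sox6, the partner of Sox5, was at 0.16 (95% interval −0.20 to 0.53), and Hapln2, of the link proteins, had too few counts to be tested; both were named after their values were seen.

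Genes most like the cartilage genes were sought among 12391 genes outside the 10 with a mean of at least 1 RPKM, by the Pearson correlation with the mean log2 CPM pattern of the 10 over the 6 libraries. The 10 with the highest values, between 0.953 and 0.973, were Cytl1, Pla2g5, Hdac3, Ciart, Wfs1, Fibin, Susd5, Ncmap, Peg13 and Smoc2. Some of these barely varied, and their r reflects the shape of small differences. The SD of log2 CPM over the 6 libraries was 0.070 for Hdac3, 0.082 for Peg13 and 0.095 for Wfs1, against 0.42 for Cytl1. The most negative r was of similar size, −0.976 for Cmc1, so a high r over 6 libraries does not mark a gene as one of cartilage. Cytl1 had rank 1 and Susd5 rank 7, both from the list of chondrocyte genes, and Fibin was on the list of tendon and joint surface genes. In all 35 genes, 0.282% of those ranked, had at least 0.9, as did 2 of the 26 ranked genes of the other cartilage lists. Col2a1 had r = 0.613 and rank 691 of 12391. Among the cartilage collagens the highest rank was 463, for Col9a2 (r = 0.678), and the lowest 2845, for Col11a1 (r = 0.315).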

How the data were processed

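Libraries were made from 500 ng of total RNA of the posterior nasal septum after removal of ribosomal RNA, with a NEBNext Ultra II kit, per the labels' protocols. The authors deposited whole-number counts and RPKM per gene for 6 libraries, per the file headers; the library constant behind the RPKM differs from the column total. The sources used here name no aligner, annotation or build for the deposited coordinates. The authors' own log2 fold changes, p-values and false discovery rates were deposited in the same table, with no test named.

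Counts of all 41709 genes entered edgeR 4.0.16 in R 4.3.3 (quasi-likelihood test with robust dispersions, TMM, filterByExpr, diet as the only term), with two-sided p-values adjusted by Benjamini-Hochberg over 18427 genes. Standard errors were derived from each gene's fold change and F statistic, and 95% intervals from them. RPKM did not enter this fit. It was used for levels of genes and their ratios, for a second look at the Sox5 ranges and for the limma alternatives on RPKM. The fit was tested on simulated data, with changed genes drawn from those with higher counts. It called 73% of 100 genes with a true log2 change of 1 in size and 94% of 100 with a change of 2. Depth ranged from 11731999 to 18727863 counts, and the lowest count of a cartilage gene in a library was 92. Within a diet, every pair of libraries differed by more than sampling noise.

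The members and lists were chosen with earlier results of these data known. Genes named were the 10 members, passing genes of each list, its 2 most abundant by RPKM and the 10 most like the members; exceptions are stated. Promoters are from RefSeq (GRCm38.p6) and matched 8 of the 10; Sox9 and Comp were not matched. Alternatives were a replicate block, each library left out, RLE and upper-quartile scaling, no filter or one of 100 counts, DESeq2 1.42.0, and limma 3.58.1 as voom and on log2(RPKM + 1) or log2(RPKM + 0.1), for genes with a mean of at least 1 RPKM in a diet.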

Additional observations from a re-analysis of the deposited data

How the results depend on the processing

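The count of cartilage genes that passed was 0 in each of the 15 alternatives run, and the smallest adjusted p of any of them was 0.263, for Sox5 in DESeq2. Sox5 was negative in the 13 alternatives that gave it a value, between −0.61 and −0.37 with adjusted p between 0.263 and 0.558; its mean RPKM was under 1 in both diets, so the limma fits on RPKM gave none. Hapln1, Matn3 and Chad also kept their sign. The log2 fold change changed sign in Acan (lowest −0.13 and highest 0.49 with a library left out), Sox9 (−0.30 to 0.040), Matn1 (−0.39 to 0.33), Comp (−0.20 to 0.42), Cnmd (−0.036 to 0.45) and Ucma (−0.15 to 0.37), and the limma fits on RPKM gave Matn1 0.088 with a pseudocount of 1 and 0.094 with 0.1, a sign change, while a filter of 100 counts gave Comp −0.00036. The fit on log2(RPKM + 0.1) moved the median of all genes to 0.12, beside 0.19 for the cartilage genes, and the cause of the sign changes was not tested.

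The count of all genes that passed, 22, became 172 without a low-count filter, 342 with DESeq2, 14 on log2(RPKM + 1) and 10 on log2(RPKM + 0.1), and between 9 and 50 with a library left out: 50 without control replicate 4, and 9 when zinc-deficient replicate 5, control replicate 5 or control replicate 6 was left out. Other cartilage genes that passed, 0 in the fit reported, were 1 (Mmp13) without a filter, with a filter of 100 counts and with DESeq2. Genes of matrix synthesis and turnover, likewise 0, were 2 (Mmp13 and Cemip) without a filter and with DESeq2 and 1 (Mmp13) with a filter of 100 counts. With 1 library left out these counts stayed between 0 and 0.

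With the replicate number as a block, 153 genes passed, 2 of them other cartilage genes (Mmp13 and Barx2) and 2 of matrix turnover (Mmp13 and Cemip), and 0 of the 10 cartilage genes or their paralogues. Deviations from the diet means of same-numbered libraries correlated at −0.048, 0.151 and 0.068, so the numbers were not taken to pair the libraries.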
